A study of Homo sapiens with 16 samples.

Results

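The 45 genes described here encode proteins of chromosomal DNA replication: the origin recognition complex, licensing factors, the MCM helicase and its activators, the sliding clamp and its loader, RPA, the replicative DNA polymerases, enzymes of Okazaki fragment maturation and of nucleotide supply, the E-type cyclins and a histone chaperone. They were taken by symbol from tables that list 28502 gene symbols, and all 45 were present in every table. RNA was measured by poly(A) RNA-seq in HCT116, an established human colorectal carcinoma cell line, in a study of the histone methyltransferase EZH1 and the small prefoldin-like protein UXT. The cells were transfected with small interfering RNA (siRNA) against EZH1 (siEZH1), with siRNA against UXT (siUXT) or with a preparation labelled NC, and each transfection was measured with tumour necrosis factor (TNF) and with PBS. This made 6 conditions: siEZH1 with TNF, siEZH1 with PBS, siUXT with TNF, siUXT with PBS, NC with TNF and NC with PBS. Each condition had 1 library. What NC stands for, the dose and duration of TNF, the siRNA sequences and whether the TNF and PBS libraries of 1 label came from separate transfections are not stated in the labels. NC served as the reference for both siRNAs, and PBS as the reference for TNF. Values are FPKM, fragments scaled by transcript length and library size, so levels of genes can be set side by side. Between libraries the values were compared as deposited, and some results were repeated with another scaling.

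Replication starts at origins that the origin recognition complex marks and on which CDC6 and CDT1 load the ring-shaped MCM helicase during G1 phase. At the start of S phase, cyclin E with CDK2 and other kinases turn the loaded ring into an active helicase that carries CDC45 and the GINS complex. DNA polymerase alpha with primase then lays down primers, replication factor C loads the PCNA clamp, and polymerases epsilon and delta extend the leading and the lagging strand. Most of these genes are transcribed at the passage from G1 into S phase, under E2F transcription factors, so that in a culture their RNA also depends on how many cells are cycling.

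Promoters were read for the members whose values differed most in the siUXT library with PBS, since these carry the main contrast below: POLE2, ORC2 and ORC3, whose values there were the lowest relative to NC among members with a promoter entry, and POLD2 and CHAF1A, whose values were the highest. The sequences are from RefSeq on build GRCh38.p14, run 5′ to 3′ from 250 bases before to 50 bases after the annotated start of the gene, and carry motif matches in capitals. The motifs searched on both strands were TTTCCCGC or TTTGGCGC (E2F type), TTTGAA (CHR type, a cell cycle element) and CCAAT (the CCAAT box). Their positions are chr14:49688165-49688464 on the minus strand for POLE2, chr2:200963611-200963910 on the minus strand for ORC2, chr6:87589885-87590184 on the plus strand for ORC3, chr7:44123499-44123798 on the minus strand for POLD2 and chr19:4402390-4402689 on the plus strand for CHAF1A.
POLE2: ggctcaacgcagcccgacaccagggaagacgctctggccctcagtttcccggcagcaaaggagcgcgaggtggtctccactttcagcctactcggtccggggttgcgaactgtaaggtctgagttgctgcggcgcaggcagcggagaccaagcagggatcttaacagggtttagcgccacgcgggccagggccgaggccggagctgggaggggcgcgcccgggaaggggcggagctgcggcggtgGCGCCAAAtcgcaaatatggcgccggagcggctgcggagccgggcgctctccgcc
ORC2: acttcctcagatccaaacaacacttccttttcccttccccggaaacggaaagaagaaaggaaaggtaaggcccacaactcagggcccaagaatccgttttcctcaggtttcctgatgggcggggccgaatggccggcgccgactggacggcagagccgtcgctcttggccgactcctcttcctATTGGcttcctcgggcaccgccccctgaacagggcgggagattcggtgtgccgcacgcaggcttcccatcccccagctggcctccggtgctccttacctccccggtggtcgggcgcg
ORC3: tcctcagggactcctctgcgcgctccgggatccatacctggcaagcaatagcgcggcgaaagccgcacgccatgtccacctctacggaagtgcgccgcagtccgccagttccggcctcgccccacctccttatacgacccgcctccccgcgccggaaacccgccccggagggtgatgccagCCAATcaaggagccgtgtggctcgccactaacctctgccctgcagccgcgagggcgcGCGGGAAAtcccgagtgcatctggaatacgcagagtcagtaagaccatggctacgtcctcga
POLD2: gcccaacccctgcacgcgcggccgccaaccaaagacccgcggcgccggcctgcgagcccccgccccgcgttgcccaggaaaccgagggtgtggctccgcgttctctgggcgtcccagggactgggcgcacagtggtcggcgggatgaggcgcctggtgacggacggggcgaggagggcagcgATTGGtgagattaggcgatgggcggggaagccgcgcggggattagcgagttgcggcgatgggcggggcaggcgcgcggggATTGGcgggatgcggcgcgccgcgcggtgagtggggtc
CHAF1A: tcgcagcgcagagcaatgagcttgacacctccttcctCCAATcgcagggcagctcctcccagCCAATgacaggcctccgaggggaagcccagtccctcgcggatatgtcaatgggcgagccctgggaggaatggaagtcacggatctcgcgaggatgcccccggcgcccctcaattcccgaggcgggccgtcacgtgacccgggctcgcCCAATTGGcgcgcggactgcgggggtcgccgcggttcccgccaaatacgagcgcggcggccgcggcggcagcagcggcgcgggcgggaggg
The match in POLE2 was of the E2F type, read on the opposite strand, and began 5 bases before the start. ORC2 held 1 CCAAT box on the opposite strand, 67 bases before the start. ORC3 held a CCAAT box 69 bases and an E2F-type match 12 bases before the start. POLD2 held CCAAT boxes on the opposite strand 68 bases before and 13 bases after the start, and CHAF1A held 4 CCAAT matches, of which the pair nearest the start overlap on opposite strands.

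Of the 45 genes, 38 matched a promoter entry by symbol, and MCM4, MCM5, GINS4, RPA2, RPA3, POLD3 and CCNE2 did not. An E2F-type match lay in 16 of the 38 promoters (42.1%), against 3.87% of 8173 promoters of expressed loci and 2.31% of all 27305 promoters in the table. The CCAAT box lay in 23 (60.5%), against 36.4% and 35.7% of the same promoters. TTTGAA lay in 1 of the 38, that of RRM1 (2.63%), against 8.99% and 15.4%. The 16 with an E2F-type match were ORC3, CDC6, CDT1, MCM3, MCM6, MCM7, GINS1, GINS2, GINS3, PCNA, RFC3, POLA1, POLE, POLE2, LIG1 and TYMS. It lay in 4 of the 6 promoters of genes at least 1.5-fold lower in the siUXT library with PBS than in NC (66.7%) and in 12 of the other 32 (37.5%). The CCAAT box lay in 4 of the same 6 (66.7%) and in 19 of the other 32 (59.4%), and TTTGAA in 0 and 1. The 6 are few, and the split was not tested. A match is a run of letters and does not show binding. Only these exact strings were searched, so a promoter without a match may still hold a variant of the element.

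The tables hold no read counts, and the depth of a library is not stated. From the steps between low values, the siEZH1 library with TNF and the NC library with TNF had 0.720 and 0.718 of the depth of the NC library with PBS, and the others 0.950 to 1.02. EZH1 measured 4.14 and 4.05 FPKM in the siEZH1 libraries with TNF and PBS, 6.23 and 6.27 FPKM in the siUXT libraries, and 5.12 and 5.45 FPKM in the NC libraries. UXT measured 24.6 and 27.7 FPKM in the siUXT libraries, 77.1 and 64.9 FPKM in the siEZH1 libraries, and 59.6 and 62.2 FPKM in the NC libraries, so each target was lowest under its own siRNA. Of 8 epithelial markers, 5 were expressed and VIL1, CDX1 and LGR5 were at or near 0. The summed epithelial level was 1679 to 2459 FPKM, the leukocyte level 0 to 0.0695 FPKM and the endothelial level 0.0943 to 0.173 FPKM. The fibroblast level was 5.72 to 8.41 FPKM and came mostly from COL1A1, with DCN at 0.

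All 45 genes were expressed in every library, with means from 4.21 FPKM (POLD3, a polymerase delta subunit) to 187 FPKM (MCM7, a helicase subunit). The highest library exceeded the lowest by a median of 1.43 times, from 1.17 times for MCM7 to 6.17 times for CCNE2 (cyclin E2). At least 2-fold ranges were found for ORC2, ORC3, RFC3, POLA1, PRIM1, POLE2 and CCNE2, 7 of the 45. Without the siUXT library with PBS no gene had such a range, and the largest was 1.75 times, for POLD1. That library held the lowest value of 14 genes and the highest of 13. The siUXT library with TNF held the lowest value of another 14, and the siEZH1 library with PBS held the highest of 22. Neither these counts nor that of 2-fold ranges was made over all loci. Because each library averages a culture, fewer cells in S phase and less RNA per cell cannot be told apart in any of the values that follow.

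**Figure D1:**
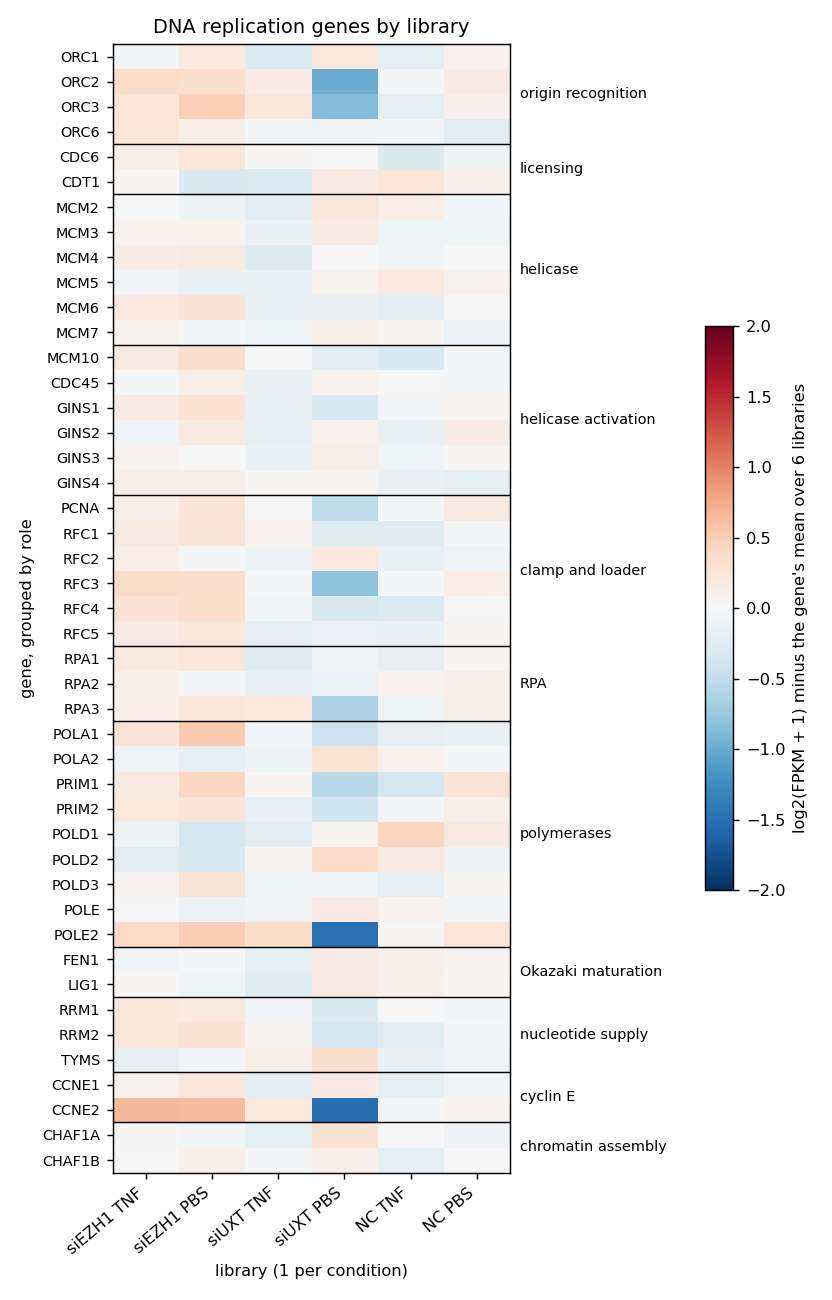
Expression of the 45 replication genes in the 6 libraries, as log2(FPKM + 1) minus the gene's own mean over the libraries, with genes in rows grouped by role and libraries in columns. The siUXT PBS column departs most from the gene means, with POLE2, CCNE2, ORC2 and ORC3 low, and both siEZH1 columns are above the mean for most genes.

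With siEZH1, most of the replication genes had slightly higher values than with NC, at both treatments. On the log2(FPKM + 1) scale, which understates the differences of low genes, the median difference was 0.23 with TNF and 0.15 with PBS, against 0.02 and 0.00 over all 11845 loci that averaged 1 FPKM or more. In each treatment 34 of the 45 genes (75.6%) were higher, against 52.3% of all loci with TNF and 50.5% with PBS. Few of the differences were large, where 1.5-fold here and below is counted on FPKM + 1. With TNF, 1 gene (CCNE2) was at least 1.5-fold higher and none lower, against 3.71% of all loci higher and 6.05% lower. With PBS, 1 gene (POLA1) was at least 1.5-fold higher and none lower, against 2.13% and 5.15%. CCNE2 with PBS was 1.53 times its NC value in FPKM itself but short of 1.5-fold on FPKM + 1. Both siEZH1 libraries were above both NC libraries for 26 genes, 57.8% of the 45, against 31.1% of all loci. Both were below both NC libraries for 7 genes, 15.6%, against 28.4% of all loci. The 7 were CDT1, MCM5, POLA2, POLD1, POLD2, FEN1 and LIG1.

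No gene of the 45 passed the test of siEZH1 against NC over both treatments. The test was limma on the 6 libraries with additive terms for transfection and treatment, 2 residual degrees of freedom and Benjamini-Hochberg adjustment over all loci. Adjusted p lay between 0.60 and 0.97, POLA1 and POLD1 had an unadjusted p under 0.05, and limma called 0.0169% of all loci. Fitted without the siUXT library with PBS, which then leaves 1 degree of freedom drawn from the siEZH1 and NC pairs, limma called 19 of the 45 (42.2%), 15 above 0 and 4 below, against 26.4% of all loci, 11.8% above 0 and 14.7% below. The 15 above were ORC3, ORC6, CDC6, MCM6, MCM10, RFC1, RFC3, RFC4, RFC5, RPA1, POLA1, RRM1, RRM2, CCNE1 and CCNE2. The 4 below were CDT1, MCM5, POLD1 and POLD2. Leaving out the siUXT library with TNF instead is no second check, since the siEZH1 difference then rests on the same siEZH1 and NC libraries. The calls were lost on leaving out any siEZH1 or NC library. Such fits keep a single library in that group and had infinite prior degrees of freedom, so they are not comparable with the fits above.

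With siUXT, the differences from NC were spread wider at PBS (SD over the 45 genes 0.50) than at TNF (SD 0.24), as they were over all loci (SD 0.57 and 0.39). In the siUXT library with PBS, 8 genes were at least 1.5-fold lower than in the NC library with PBS and none was that much higher, against 16.4% of all loci lower and 4.11% higher. The 8 are 17.8% of the 45, a share near that of all loci. They were POLE2, CCNE2, ORC2, ORC3, RFC3, PRIM1, RPA3 and PCNA. The last inside the threshold, PCNA, differed by -0.69 and the first outside it, PRIM2, by -0.54. The median difference over the 45 genes was -0.07, against 0.04 over all loci, so the low genes stood beside others that were level or higher. With TNF, 1 gene (POLD1) was at least 1.5-fold lower with siUXT than with NC and none was higher, against 3.06% and 3.12% of all loci, and the median difference was -0.04.

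Over both treatments, the siUXT libraries lay above both NC libraries for CDC6, GINS4 and TYMS, 3 genes or 6.67%, against 17.3% of all loci. They lay below both for MCM5, GINS1, RPA2, PRIM2, POLD1 and RRM1, 6 genes or 13.3%, against 12.9% of all loci. After division by median-of-ratios size factors the count below was 11 and the count above stayed at 3, with no share over all loci computed. This scaling moved all loci down as well: limma's siUXT difference was above 0 for 5118 of 11845 loci, against 5746 as deposited. In limma's additive model none of the 45 passed for siUXT against NC, with adjusted p from 0.91 to 0.998 and no unadjusted p under 0.05, and 0.0422% of all loci were called. Without the siUXT library with TNF, limma called 13 of the 45 (28.9%), 3 higher and 10 lower, against 30.4% of all loci. Without the siUXT library with PBS it called 1, POLD1, which was lower (adjusted p = 0.0496), against 1.09% of all loci. In each of these fits siUXT is a single library, taken to vary as the other groups do.

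The TNF response of the siUXT cells was then set against that of the other transfections, which asks whether the siUXT difference was the same at both treatments. The value is the log2 difference of TNF over PBS with siUXT, minus the mean of the same difference with siEZH1 and with NC. limma called 17 of the 45 genes (37.8%) at an adjusted p under 0.05, against 31.6% of all loci. Of these, 9 were above 0 (20%, against 18.4% of all loci) and 8 below 0 (17.8%, against 13.2%). The 9 above 0 were POLE2, CCNE2, ORC3, ORC2, PRIM1, RPA3, RFC3, PCNA and RRM2. The 8 below 0 were CDT1, MCM2, CHAF1A, POLD1, POLD2, LIG1, POLA2 and MCM7. After division by size factors the split was 11 above (24.4%) and 6 below (13.3%), against 20.1% and 10.5% of all loci.

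The residual of this model is 1 degree of freedom, the difference of the TNF response between siEZH1 and NC, so the test takes the siUXT libraries to vary as the others do and compares these libraries. With no filter on low values limma called 0 of the 45, with 22 at an unadjusted p under 0.05, and 0 of 17642 loci. Without the trend of the variance with the mean it called 6 (13.3%), against 13.5% of all loci. With a filter at a mean of 5 FPKM it called 20 of 44 (45.5%), against 46.1% of all loci. Summed over 7 markers of G2 phase and mitosis, the siUXT library with PBS had 301 FPKM against 324 to 426 FPKM in the others. CDK1, the mitotic kinase, carried that low sum, at 19.7 FPKM against 64.6 to 104 FPKM. Without CDK1 the sum was 281 FPKM against 259 to 322 FPKM in the other 5. PLK1 (107 FPKM) and MKI67 (27.7 FPKM) were at their highest in the siUXT library with PBS. CCNB1 (76.1 FPKM), BUB1 (24.7 FPKM) and CENPF (7.70 FPKM) were, like CDK1, at their lowest there, and AURKA lay between. The part of the cell cycle in these differences was not tested.

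**Figure D2:**
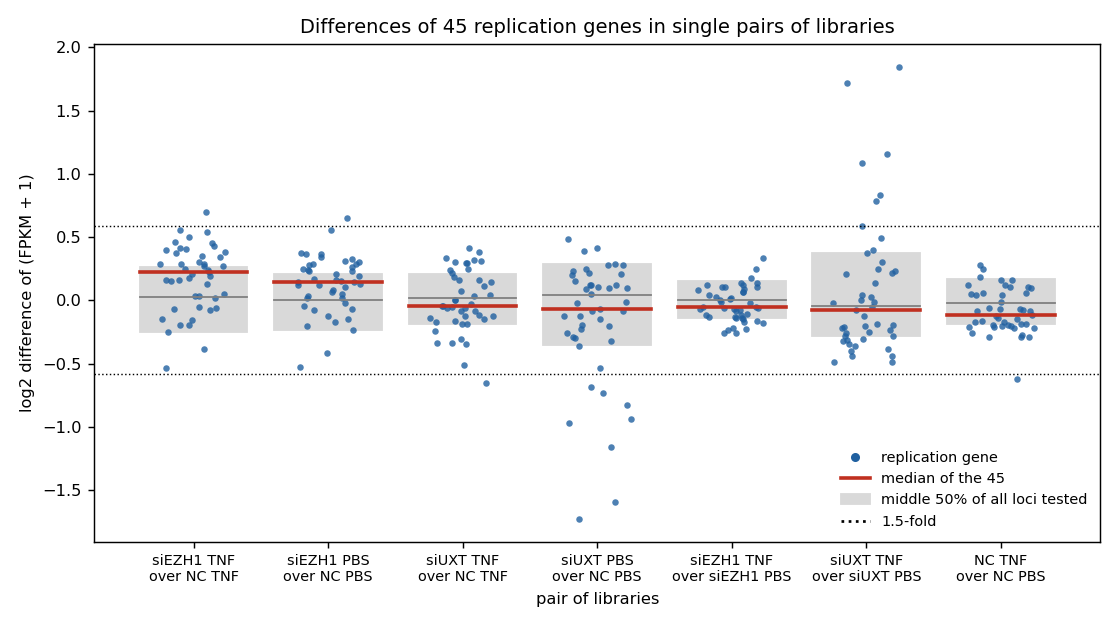
Differences of log2(FPKM + 1) for the 45 replication genes in single pairs of libraries. Each point is a gene, the red line the median of the 45, the grey box and line the middle 50% and the median of all 11845 loci, and the dotted lines mark 1.5-fold. The points spread most in the pairs that hold the siUXT PBS library, where 8 genes lie below the lower dotted line against NC PBS.

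The origin recognition complex has 6 different subunits, of which ORC1, ORC2, ORC3 and ORC6 are among the 45. ORC2, a core subunit, had 12.8 and 12.4 FPKM in the siEZH1 libraries with TNF and PBS, 11.1 and 4.41 FPKM in the siUXT libraries with TNF and PBS, and 9.65 and 11.1 FPKM in the NC libraries with TNF and PBS. ORC3, its partner in the core, had 12.8 and 15.3 FPKM with siEZH1, 12.6 and 5.40 FPKM with siUXT, and 9.22 and 11.5 FPKM with NC, again with TNF before PBS. For both genes the siUXT library with PBS was the lowest of the 6, and both siEZH1 libraries were above both NC libraries. Relative to NC with PBS, ORC2 differed by -1.16 and ORC3 by -0.97 in the siUXT library with PBS. In the TNF response, siUXT differed from the other transfections by 1.23 ± 0.18 for ORC2 (standard error, adjusted p = 0.0075) and 1.36 ± 0.16 for ORC3 (adjusted p = 0.0039). ORC1, the ATPase that binds CDC6, did not share the low value: its 16.2 FPKM in the siUXT library with PBS was the highest of its 6 values, which went down to 11.3 FPKM in the siUXT library with TNF. The level of ORC2 per unit of ORC1 was 0.272 in the siUXT library with PBS, against 0.748 to 0.982 in the other 5. ORC6, the small subunit, lay between 25.6 and 35.7 FPKM, with both siEZH1 libraries highest. All 4 genes were higher with siEZH1 than with NC at both treatments, with ORC3 at 0.43 with TNF and 0.38 with PBS.

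CDC6 and CDT1 bring the helicase to the origin. CDT1, which is destroyed once S phase has begun, had 39.97 and 31.4 FPKM with siEZH1, 32.0 and 43.8 FPKM with siUXT, and 45.9 and 42.3 FPKM with NC, with TNF before PBS in each pair. It was thus lower in both siEZH1 libraries than in both NC libraries, while the siUXT libraries lay on either side of the NC library with PBS. The TNF response of CDT1 differed by -0.67 ± 0.14 (adjusted p = 0.020), the lowest of the 45. CDC6, the ATPase that loads the helicase with CDT1, had 36.7 and 40.5 FPKM with siEZH1, 34.7 and 34.1 FPKM with siUXT, and 27.6 and 31.7 FPKM with NC. For CDC6 all 4 siRNA libraries against EZH1 and UXT were above both NC libraries, and its adjusted p was 0.60 for siEZH1 with all 6 libraries and 0.017 without the siUXT library with PBS.

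The 6 MCM subunits had means from 51.6 FPKM (MCM6) to 187 FPKM (MCM7), and their highest library exceeded the lowest by 1.17 times (MCM7) to 1.42 times (MCM6), against the median of 1.43 times over the 45. Their mean was 102 and 98.4 FPKM in the siEZH1 libraries with TNF and PBS, 87.5 and 104 FPKM in the siUXT libraries, and 98.1 and 93.9 FPKM in the NC libraries. No subunit was 1.5-fold apart in any pair of siEZH1 or siUXT with NC. MCM2, which also binds histones, had 82.7 and 78.0 FPKM with siEZH1, 72.2 and 98.4 FPKM with siUXT, and 92.1 and 80.7 FPKM with NC. The siUXT libraries held both its lowest value, with TNF, and its highest, with PBS. For the TNF response the difference was -0.58 ± 0.11 for MCM2 (adjusted p = 0.016) and -0.34 ± 0.10 for MCM7 (adjusted p = 0.048), and that of the other 4 subunits was not called. MCM7 had 197 and 181 FPKM with siEZH1, 176 and 202 FPKM with siUXT, and 192 and 172 FPKM with NC, so its groups overlapped throughout. MCM5 had 69.1 and 65.0 FPKM with siEZH1, 65.2 and 75.8 FPKM with siUXT, and 82.5 and 76.6 FPKM with NC. It was the 1 subunit with both siRNAs below both NC libraries, by -0.25 and -0.23 with siEZH1 and by -0.34 and -0.02 with siUXT, and the last of these is smaller in size than the median shift of 0.04 over all loci in that pair. MCM3, MCM4 and MCM6 were higher in both siEZH1 libraries than in both NC libraries. MCM6 had 58.8 and 62.5 FPKM with siEZH1, 46.4 and 46.8 FPKM with siUXT, and 44.0 and 51.0 FPKM with NC.

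Among the factors that turn the loaded ring into a helicase, MCM10 differed most. MCM10, which acts in helicase activation and binds polymerase alpha, had 12.8 and 14.5 FPKM with siEZH1, 11.2 and 9.44 FPKM with siUXT, and 8.77 and 10.97 FPKM with NC. The siEZH1 libraries were above the other 4, by 0.50 and 0.37 relative to NC with TNF and PBS, and the siUXT and NC libraries overlapped. Without the siUXT library with PBS limma gave MCM10 a siEZH1 difference of 0.43 ± 0.10 (adjusted p = 0.025), against an adjusted p of 0.60 with all 6 libraries. CDC45 ranged from 16.1 to 19.9 FPKM and the GINS subunits from 8.55 FPKM (GINS4) to 66.9 FPKM (GINS2), with no member of these 1.5-fold apart in a pair with NC. GINS1 was lower in both siUXT libraries, at 18.9 and 17.1 FPKM with TNF and PBS, than in the NC libraries, at 20.9 and 22.2 FPKM.

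**Figure D3:**
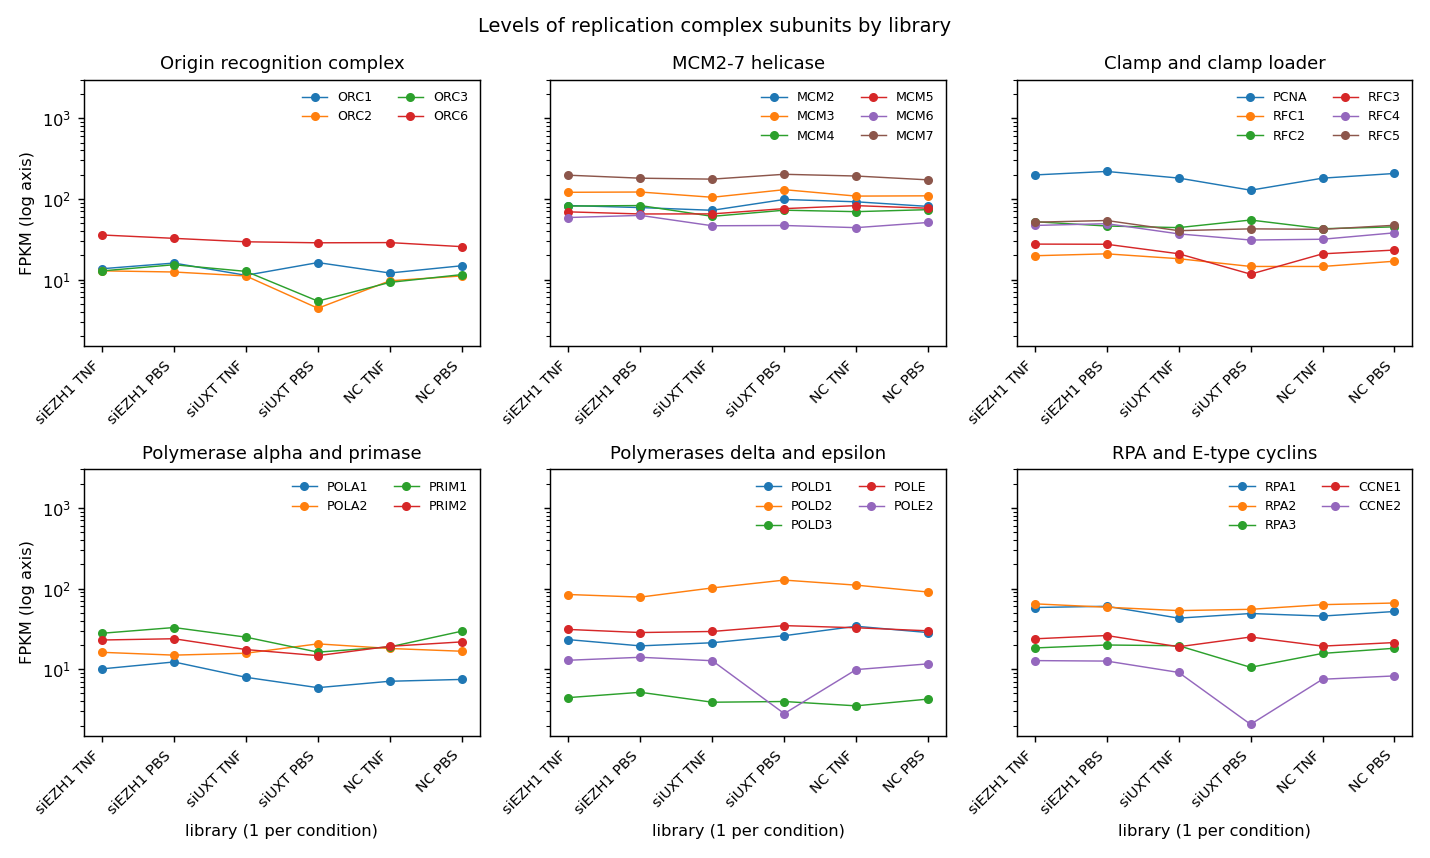
FPKM on a log axis of subunits of 6 replication complexes in the 6 libraries, 1 line per gene; lines only connect values of 1 gene. ORC2, ORC3, RFC3, POLE2, CCNE2 and RPA3 dip in the siUXT PBS library while ORC1, RFC2, POLE, CCNE1, MCM2 and MCM7 do not.

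PCNA, the sliding clamp that tethers polymerases to DNA, had 198 and 219 FPKM with siEZH1, 181 and 128 FPKM with siUXT, and 181 and 207 FPKM with NC, with TNF before PBS. The siUXT library with PBS was the lowest, and the siUXT library with TNF lay beside its NC partner. Its difference of the TNF response was 0.66 ± 0.10 (adjusted p = 0.0080). The clamp is opened by replication factor C, a large subunit RFC1 with 4 small subunits. RFC3, one of the small subunits, had 27.5 and 27.4 FPKM with siEZH1, 20.9 and 11.7 FPKM with siUXT, and 20.8 and 23.2 FPKM with NC. Its siEZH1 libraries were the highest and its siUXT library with PBS the lowest, with a difference of the TNF response of 0.86 ± 0.15 (adjusted p = 0.011). RFC2, another small subunit, had its highest value, 54.7 FPKM, in that same library, and the level of RFC3 per unit of RFC2 was 0.213 there against 0.474 to 0.594 in the other 5. RFC4 had 46.9 and 49.3 FPKM with siEZH1, 36.8 and 30.9 FPKM with siUXT, and 31.6 and 38.0 FPKM with NC. The siEZH1 libraries were above the other 4, by 0.55 and 0.37 relative to NC with TNF and PBS, and the adjusted p of the RFC4 difference for siEZH1 was 0.60 with all 6 libraries and 0.013 without the siUXT library with PBS. RFC1 had 19.7 and 20.8 FPKM with siEZH1, 18.1 and 14.5 FPKM with siUXT, and 14.5 and 16.9 FPKM with NC. RFC5 had 51.4 and 53.9 FPKM with siEZH1, 40.4 and 42.5 FPKM with siUXT, and 41.98 and 47.1 FPKM with NC. All 6 clamp and loader genes were higher with siEZH1 than with NC in both treatments, with medians of 0.34 with TNF and 0.21 with PBS. Of the same 6, 5 were lower with siUXT than with NC at PBS, as were 5497 of all 11845 loci.

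RPA coats the single-stranded DNA behind the helicase as a trimer. RPA3, its smallest subunit, had 18.3 and 19.95 FPKM with siEZH1, 19.5 and 10.6 FPKM with siUXT, and 15.7 and 18.2 FPKM with NC. The siUXT library with PBS was the lowest and the other 5 lay close together, with a difference of the TNF response of 0.99 ± 0.15 (adjusted p = 0.0073). RPA2 was lower in both siUXT libraries, at 53.3 and 55.2 FPKM with TNF and PBS, than in both NC libraries, at 63.1 and 66.1 FPKM. RPA1, the DNA-binding subunit, ranged from 43.0 to 60.3 FPKM and was highest in both siEZH1 libraries.

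Polymerase alpha and primase form 1 complex of 4 subunits that makes the RNA-DNA primers. PRIM1, the catalytic subunit of primase, had 27.9 and 32.9 FPKM with siEZH1, 24.98 and 16.3 FPKM with siUXT, and 18.9 and 29.6 FPKM with NC, with TNF before PBS. The NC libraries differed from each other by -0.62 with TNF over PBS, the 1 gene of the 45 past 1.5-fold in that pair, so that both siRNA groups are read against a spread NC pair. For PRIM1 the difference of the TNF response was 1.01 ± 0.19 (adjusted p = 0.014). POLA1, the catalytic subunit of polymerase alpha, had 10.1 and 12.3 FPKM with siEZH1, 7.94 and 5.90 FPKM with siUXT, and 7.09 and 7.47 FPKM with NC. Both siEZH1 libraries were above all the others, by 0.46 and 0.65 relative to NC with TNF and PBS, and limma's siEZH1 difference was 0.55 ± 0.23 (adjusted p = 0.60; 0.018 without the siUXT library with PBS). POLA2, its accessory subunit, had 16.2 and 14.9 FPKM with siEZH1, 15.8 and 20.6 FPKM with siUXT, and 18.1 and 16.7 FPKM with NC. Here the siUXT library with PBS was the highest, opposite to PRIM1, and the difference of the TNF response was -0.47 ± 0.14 (adjusted p = 0.049). PRIM2, which holds primase to the template, ranged from 14.7 FPKM in the siUXT library with PBS to 23.9 FPKM in the siEZH1 library with PBS.

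Polymerase delta copies the lagging strand. POLD1, its catalytic subunit, had 23.3 and 19.5 FPKM with siEZH1, 21.3 and 26.02 FPKM with siUXT, and 34.1 and 28.5 FPKM with NC. All 4 libraries with an siRNA against EZH1 or UXT were below both NC libraries, by -0.53 and -0.53 with siEZH1 and by -0.65 and -0.12 with siUXT. In limma the siEZH1 difference of POLD1 was -0.53 ± 0.21 (adjusted p = 0.60) with all 6 libraries and -0.53 ± 0.08 (adjusted p = 0.0098) without the siUXT library with PBS. The siUXT difference of POLD1 was called in the fit without that library as well, and it then rests on the library with TNF alone. POLD2, which joins the subunits of polymerase delta, had 84.3 and 78.3 FPKM with siEZH1, 102 and 127 FPKM with siUXT, and 110.2 and 90.5 FPKM with NC. It was lower in both siEZH1 libraries than in both NC libraries, and its highest value was in the siUXT library with PBS, 0.49 above NC. The difference of the TNF response was -0.53 ± 0.13 for POLD1 (adjusted p = 0.029) and -0.51 ± 0.12 for POLD2 (adjusted p = 0.026). POLD3, a further subunit, was the least abundant of the 45, at 3.51 to 5.17 FPKM.

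Polymerase epsilon copies the leading strand, and its genes gave the widest contrast within 1 complex. POLE2, its second subunit, had 12.9 and 14.1 FPKM with siEZH1, 12.7 and 2.81 FPKM with siUXT, and 9.89 and 11.6 FPKM with NC, with TNF before PBS. The siUXT library with PBS lay below the other 5, and the siEZH1 libraries lay above both NC libraries. The difference of the TNF response was 2.01 ± 0.17 (adjusted p = 0.0016), the highest of the 45. POLE, the catalytic subunit, ranged from 28.5 to 34.7 FPKM and was highest in the siUXT library with PBS. The level of POLE2 per unit of POLE was 0.0811 in that library and 0.303 to 0.494 in the other 5.

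FEN1 and LIG1 trim and join Okazaki fragments. LIG1, the ligase, had 27.8 and 25.7 FPKM with siEZH1, 23.0 and 30.5 FPKM with siUXT, and 29.3 and 28.1 FPKM with NC. The siUXT libraries held its lowest and its highest value, and the difference of the TNF response was -0.48 ± 0.13 (adjusted p = 0.036). FEN1, the flap endonuclease, ranged from 90.8 FPKM in the siUXT library with TNF to 116 FPKM in the siUXT library with PBS. Both genes were lower in the siEZH1 libraries than in the NC libraries, by at most -0.19.

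Ribonucleotide reductase and thymidylate synthase supply deoxynucleotides. RRM2, the reductase subunit that is made in S phase, had 148 and 154 FPKM with siEZH1, 132 and 99.9 FPKM with siUXT, and 107 and 125 FPKM with NC. Both siEZH1 libraries were above both NC libraries, and the siUXT libraries lay on either side of NC. The difference of the TNF response of RRM2 was 0.54 ± 0.12 (adjusted p = 0.020). RRM1, the other reductase subunit, ranged from 41.6 FPKM in the siUXT library with PBS to 59.8 FPKM in the siEZH1 library with TNF; it shares its values with the symbol LOC100506082, so they cannot be assigned to RRM1 alone. TYMS, thymidylate synthase, went the other way in the siUXT library with PBS, at 87.4 FPKM, and had 75.7 FPKM in the siUXT library with TNF, against 63.8 and 66.5 FPKM in the NC libraries with TNF and PBS.

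The E-type cyclins activate CDK2 at the start of S phase. CCNE2 had 12.8 and 12.6 FPKM with siEZH1, 9.12 and 2.07 FPKM with siUXT, and 7.51 and 8.26 FPKM with NC, with TNF before PBS. It was the highest in both siEZH1 libraries, by 0.70 and 0.56 relative to NC with TNF and PBS, and the lowest in the siUXT library with PBS, by -1.59. The difference of the TNF response for CCNE2 was 1.77 ± 0.18 (adjusted p = 0.0027). Its siEZH1 difference was 0.63 ± 0.45 (adjusted p = 0.65) with all 6 libraries and 0.63 ± 0.10 (adjusted p = 0.012) without the siUXT library with PBS. CCNE1 had 23.8 and 26.1 FPKM with siEZH1, 19.0 and 25.1 FPKM with siUXT, and 19.3 and 21.4 FPKM with NC. CCNE1 was thus higher in both siEZH1 libraries than in both NC libraries, as CCNE2 was, but not low in the siUXT library with PBS. The level of CCNE2 per unit of CCNE1 was 0.0827 in that library and 0.386 to 0.537 in the other 5.

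CHAF1A and CHAF1B are subunits of the chaperone that sets new histones on replicated DNA. CHAF1A, the large subunit, had 22.9 and 21.8 FPKM with siEZH1, 19.9 and 28.3 FPKM with siUXT, and 22.5 and 21.0 FPKM with NC. As with MCM2 and LIG1, the siUXT libraries held its lowest value with TNF and its highest with PBS, and the difference of the TNF response was -0.57 ± 0.13 (adjusted p = 0.025). CHAF1B ranged from 19.7 to 24.2 FPKM.

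**Figure D4:**
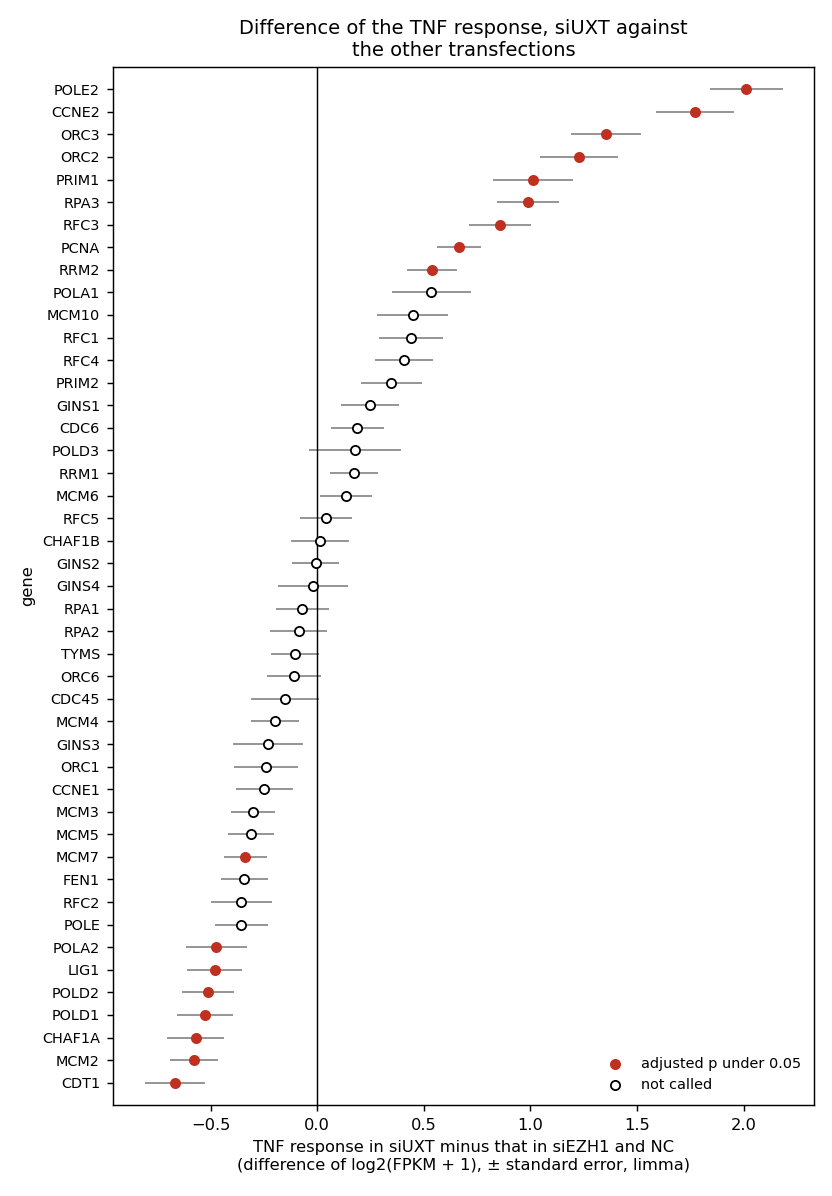
Difference of the TNF response, siUXT minus the mean of siEZH1 and NC, on the log2(FPKM + 1) scale for each of the 45 genes, with standard errors from limma. Filled red points mark the 17 genes with an adjusted p under 0.05, from POLE2 at 2.01 to CDT1 at -0.67.

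Averaged over the transfections, no replication gene passed the test of TNF. limma called none of the 45 for TNF against PBS, with adjusted p of 0.999 and no unadjusted p under 0.05, while 0.414% of all loci were called. No gene had all 3 TNF libraries above all 3 PBS libraries, against 3.47% of all loci. ORC1 and GINS2, a subunit of the GINS ring, had all 3 TNF libraries below all 3 PBS libraries, 4.44% of the 45 against 3.04% of all loci. ORC1 had 13.6, 11.3 and 12.1 FPKM with TNF and 16.0, 16.2 and 14.8 FPKM with PBS, in the order siEZH1, siUXT and NC. GINS2 had 55.7, 51.4 and 53.6 FPKM with TNF and 66.9, 62.8 and 65.9 FPKM with PBS in the same order. Within single transfections, no gene was 1.5-fold apart between TNF and PBS with siEZH1, against 3.22% of all loci higher and 1.35% lower. With siUXT, 7 genes were at least 1.5-fold higher with TNF and none lower, against 16.8% and 3.61% of all loci. With NC, none was that much higher and PRIM1 was lower, against 3.4% and 1.98% of all loci. The medians over the 45 genes were -0.05 with siEZH1, -0.07 with siUXT and -0.12 with NC.

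Another 55 genes of replication and of the G1 to S passage, all expressed, were read beside the 45. In the siUXT library with PBS their median difference from NC was -0.40, and 21 were at least 1.5-fold lower and none higher, where 16.4% and 4.11% of all loci were. DSCC1, a subunit of an alternative clamp loader, had 3.31 FPKM there against 17.0 FPKM in the NC library with PBS, a difference of -2.06. RB1, the retinoblastoma repressor of E2F, had 3.01 FPKM against 11.5 FPKM in NC. DBF4, the activator of CDC7 kinase, had 1.69 against 7.07 FPKM, and HELLS, a chromatin remodeller, had 3.67 against 10.4 FPKM. At the other end POLD4, a small polymerase delta subunit, had 9.28 against 5.97 FPKM, and RNASEH2A, which removes ribonucleotides, had 72.2 against 54.4 FPKM. In the test of the TNF response, limma called 23 of the 55 above 0 (41.8%, against 18.4% of all loci) and 4 below 0 (7.27%, against 13.2%). With siEZH1, 27 of the 55 had both libraries above both NC libraries (49.1%, against 31.1% of all loci) and 9 had both below (16.4%, against 28.4%). CHTF18, which forms the alternative clamp loader with DSCC1, had 17.6 and 13.8 FPKM in the siEZH1 libraries with TNF and PBS, against 31.4 and 22.6 FPKM in the NC libraries. TIPIN, which protects the fork, had 12.7 FPKM in the siEZH1 library with PBS, against 6.08 FPKM in the NC library with PBS. No gene of the 55 was called for siEZH1 or siUXT against NC in the additive model with all 6 libraries, where 3 and 1 had an unadjusted p under 0.05.

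In the siUXT library with PBS, genes of longer genomic span tended to have lower values relative to NC. Across the 45 genes, Spearman's rho of the difference from NC with gene span was -0.42, against -0.22 across 10156 loci with a span in RefSeq. In the siUXT pair with TNF it was 0.16 and 0.18, and in the siEZH1 pairs 0.28 and 0.27 with TNF and 0.24 and 0.26 with PBS. Genes share the same libraries and are not independent, so these are descriptions. The 8 genes at least 1.5-fold lower in the siUXT library with PBS had a median span of 49672 bases and a median level of 14.1 FPKM, against 33624 bases and 34.2 FPKM for the other 37. The 3 longest genes, PRIM2 at 425311 bases, POLA1 at 303069 bases and RFC3 at 159229 bases, differed from NC there by -0.54, -0.29 and -0.93. PCNA, at 11670 bases, and CCNE2, at 16470 bases, were also among the 8, while POLE, at 63581 bases, was higher there than in NC. With mean FPKM, rho of the same difference was 0.35 across the 45 genes and 0.11 across the 10156 loci. The sign was opposite in the other pairs. With mean FPKM, rho was -0.40 and -0.05 in the siUXT pair with TNF. In the siEZH1 pairs it was -0.40 and -0.08 with TNF and -0.41 and -0.06 with PBS, so members of lower level tended to be higher there. The part of gene span and level in the differences was not tested.

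**Figure D5:**
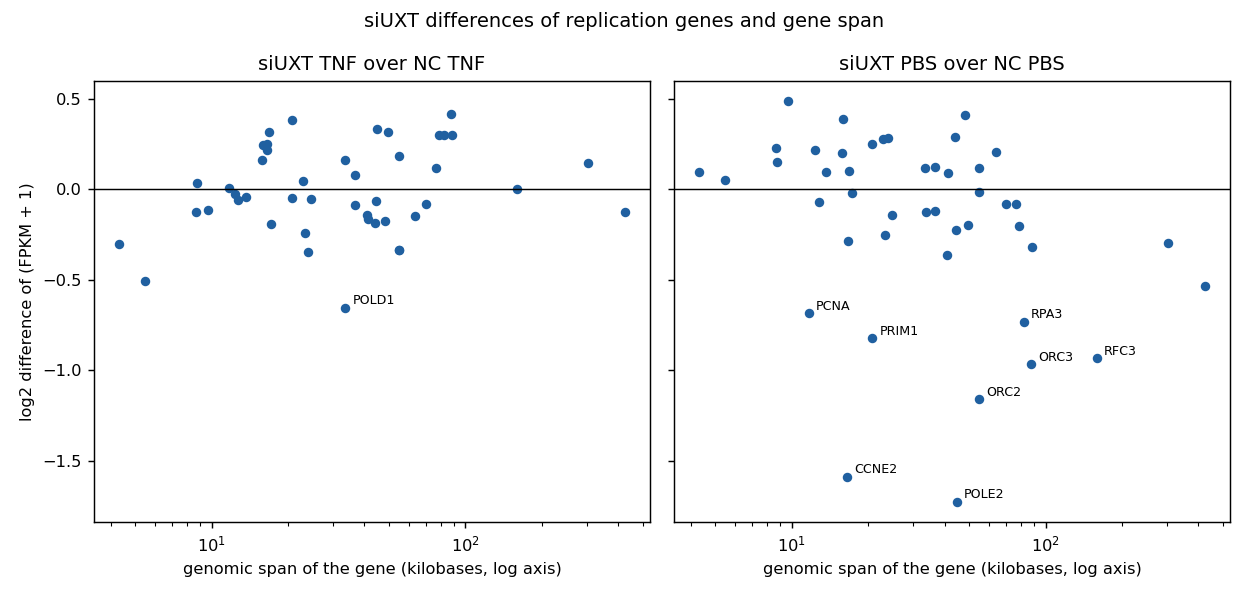
Difference of log2(FPKM + 1) between siUXT and NC with TNF (left) and with PBS (right) against the genomic span of each of the 45 genes in kilobases, on a log axis. Named genes are at least 1.5-fold apart: POLD1 with TNF, and 8 genes of short and long span with PBS.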

How the data were processed

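Values are the FPKM per gene symbol that the authors deposited for 6 poly(A) RNA-seq libraries; 10 chromatin samples of the series were not analysed here. Per the submitters' processing notes, FastQC, cutadapt, TopHat2, Bowtie and SICER were used with build hg19; neither the program behind the FPKM values nor its strand setting or annotation is stated there. Groups came from the sample titles. Where symbols had the same value in each of the 6 libraries they were counted as 1 locus; 17642 loci were above 0, and the 11845 that averaged 1 FPKM or more were tested. log2(FPKM + 1) was fitted with limma 3.58.1 in R 4.3.3 (lmFit, eBayes with trend; Benjamini-Hochberg over all loci, threshold 0.05) as an additive model of transfection and treatment, with 2 residual and 4.42 prior degrees of freedom, and with an added term for the siUXT response to TNF, with 1 and 5.19. The residual of such fits measures only these libraries. Single pairs of libraries were compared without a test. Both fits were tested on simulated data in which each locus varied alike in all 6 libraries. No simulated library stood apart at many loci, so the case of siUXT with PBS was not covered. Named in full were the members past an adjusted p of 0.05 in either fit of all 6 libraries, otherwise the 4 highest and 4 lowest in each pair with NC, plus PCNA, MCM2 and CCNE1; MCM6, RFC1, RFC5, GINS2, CDC6, GINS1, RPA2 and TYMS are given beyond this rule for groups that did not overlap or for calls with 1 library left out. For the 55 companion genes at most 4 per direction and pair were named. The members, lists and tests were chosen with earlier results of these data known. Relative depth was read from values under 0.4 FPKM with a tolerance of 2%. Gene spans and promoters are RefSeq's, matched by symbol. Alternatives were another pseudocount, other filters, size factors, no variance trend, and each library left out. Other steps used pandas 2.3.3 and scipy 1.17.1 in Python 3.11.15, and figures matplotlib 3.10.9.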

Additional observations from a re-analysis of the deposited data

Results flagged for a closer look

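The TNF response of 17 replication genes differed between siUXT and the other transfections by limma's test of the difference itself, over 6 libraries, at an adjusted p under 0.05; these are 37.8% of the 45, against 31.6% of all loci. The fit has 1 residual degree of freedom and 1 siUXT library per treatment, and it called 0 of the 45 with no filter on low values. Without the variance trend it called 6 (13.3%), against 13.5% of all loci. With a filter at a mean of 5 FPKM it called 20 of 44 (45.5%), against 46.1% of all loci. The share among the replication genes was thus near that of all loci. In 9 the difference was above 0: POLE2 at 2.01, CCNE2 at 1.77, ORC3 at 1.36, ORC2 at 1.23, PRIM1 at 1.01, RPA3 at 0.99, RFC3 at 0.86, PCNA at 0.66 and RRM2 at 0.54 on the log2(FPKM + 1) scale. In 8 it was below 0: CDT1 at -0.67, MCM2 at -0.58, CHAF1A at -0.57, POLD1 at -0.53, POLD2 at -0.51, LIG1 at -0.48, POLA2 at -0.47 and MCM7 at -0.34. For 8 of the 9 above 0 (RRM2 apart) the siUXT library with PBS was at least 1.5-fold below the NC library with PBS.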

How the results depend on the processing

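Counts over all loci moved most. limma called 2 loci for siEZH1 against NC, 1 with a filter at a mean of 5 FPKM, 42 to 3132 with 1 library left out and 3101 without both siUXT libraries. For siUXT against NC it called 5, then 0 with a pseudocount of 0.1, 1 with the filter at 5 FPKM, 46 to 3604 with 1 library left out and 65 without both siEZH1 libraries. For TNF it called 49, then 23 with no filter, 126 to 328 with 1 library left out, 323 without both siUXT libraries and 130 without both siEZH1 libraries. For the difference of the TNF response it called 3746, then 0 with no filter and 1601 without the variance trend. Of the 45 genes, 0 to 19 were called for siEZH1 with 1 library left out and 19 without both siUXT libraries, 0 to 13 for siUXT with 1 library left out, and for the difference of the TNF response 0 with no filter and 6 without the trend. With a pseudocount of 0.1, 2 genes were at least 1.5-fold higher with siEZH1 at PBS. With size factors, 11 genes had both siUXT libraries below both NC libraries, with no share over all loci computed. The siEZH1 difference of PRIM1 turned to -0.0581 without the NC library with TNF, over a range of -0.0581 to 0.742 with 1 library left out. The cause of these changes was not tested. Prior degrees of freedom were infinite in fits without 1 siEZH1 or NC library, and 5.18 or 5.15 without 1 siUXT library. Counts with 1 library left out are therefore not comparable with each other. For siEZH1 and for TNF, the fits without either or both siUXT libraries rest on the same siEZH1 and NC libraries. They are 1 check and not several. Calls of single genes that were lost with size factors or a pseudocount of 0.1 were those of MCM7 and POLA2. Leaving out 1 library was not possible for the difference of the TNF response, since no residual degree of freedom remains. No paired analysis was possible because each condition has 1 library and the labels give no replicate numbers. Depth is not stated, so no counting error is given.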
